A study of Mus musculus with 8 samples.

Results

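The comparison of LONP1 mKO with WT gastrocnemius (GC) muscle at 6 weeks of age is described here gene by gene. The members are the rows of the 6-week table whose estimate succeeded and whose expression reached an FPKM of at least 1 in either group, and 11281 of 24346 rows met this rule. FPKM counts sequenced fragments per kb of exon and is scaled to the number of mapped fragments. At the edge of the rule, Zfp26 (1.00022 FPKM in WT, 0.942 FPKM in LONP1 mKO muscle) and Apbb1ip (1.00103 and 0.833 FPKM) were just inside, and 5330426P16Rik (0.999931 and 0.657 FPKM) was just outside.

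LONP1 mKO mice carry floxed Lonp1 alleles (Lonp1 f/f) together with a Cre recombinase under the human skeletal actin (HSA) promoter, which removes the gene in skeletal muscle fibres after birth and leaves it in the other cells of the muscle. WT mice served as controls, and all mice were of the C57BL/6J strain, male by the methods of the study. Each group had 2 libraries at 6 weeks, and a table of the same layout with 2 libraries a group from mice aged 2 weeks was used for values at the younger age. Each table holds 1 FPKM value per group, pooled by the authors over both libraries, so no spread between mice can be given, no test was possible and a value that rests on 1 of the 2 libraries cannot be told apart from a value shared by both. Differences are given as the log2 of the LONP1 mKO value plus 1 over the WT value plus 1, called the change below, and a gene is called higher or lower when this change passed 1.5-fold. Pairs of FPKM values are given with WT first and LONP1 mKO second.

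LONP1 is an ATP-dependent serine protease of the mitochondrial matrix, which degrades misfolded and unassembled proteins and acts as a chaperone for others. When protein quality control fails in mitochondria, mammalian cells can activate the integrated stress response (ISR), in which kinases phosphorylate the translation initiation factor eIF2 and the transcription factor ATF4 is made in larger amounts. ATF4 and its partners of the C/EBP family drive genes for amino acid synthesis, amino acid uptake and the charging of tRNA, as well as secreted factors such as FGF21 and GDF15.

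Lonp1 itself (chr17:56614297-56626887 of GRCm38, minus strand, protein coding) was at 61.4 FPKM in WT against 7.89 FPKM in LONP1 mKO muscle, a change of -2.81. The residual value covers fibres and all other cells of the muscle, and in whole muscle fewer cells of a type and less RNA per cell cannot be told apart. Of 10 measured markers of muscle fibres 8 were below and 2 above WT, with a median of -0.19, or 6 below and a median of -0.04 when both groups were scaled to the same sum. The 2 above WT were Des, with 1307 against 1534 FPKM, and Tcap, with 4597 against 4952 FPKM. Myoglobin (Mb), the oxygen store of fibres, was the 1 of the 10 past 1.5-fold, with 3678 against 1243 FPKM. Acta1 and Ckm belong to 11 rows whose estimate failed because of too many fragments and were not used.

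Of the 11281 genes, 835 were higher in LONP1 mKO muscle (7.40%) and 798 were lower (7.07%), together 14.5%. The median change was -0.04, and the middle 50% of changes lay between -0.26 and 0.19. More than 4-fold differences were mostly upward, with 74 genes higher and 16 lower. A gene that met the minimum in 1 group only could differ in 1 direction only, which applies to 183 of the 835 higher and 78 of the 798 lower genes. Abundant genes were more often lower than scarce ones. Among 88 genes with a mean of at least 1000 FPKM, 18.2% were lower and 11.4% higher, whereas among 6370 genes below 10 FPKM 5.13% were lower and 8.12% higher. The FPKM of all members summed to 621466 in WT against 553255 in LONP1 mKO muscle, and the 10 genes highest in WT, among them the troponin gene Tnnc2 with 27648 FPKM in WT against 18654 FPKM in LONP1 mKO muscle, made up 22.4% of the first sum and 16.7% of the second. The 11 rows whose estimate failed, Acta1, Ckm and Myh4 among them, are in neither sum, so a scale set by sums leaves out their RNA. Scaling both groups to the same sum adds up to 0.17 to a change, least for scarce genes, after which 1269 genes are higher and 503 lower (71.6% rather than 51.1% of the called genes are higher), so the sign of a small negative change can turn with the scale. Counts given with equal sums below stand beside these 1269 and 503 of the 11281 genes.

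**Figure D1:**
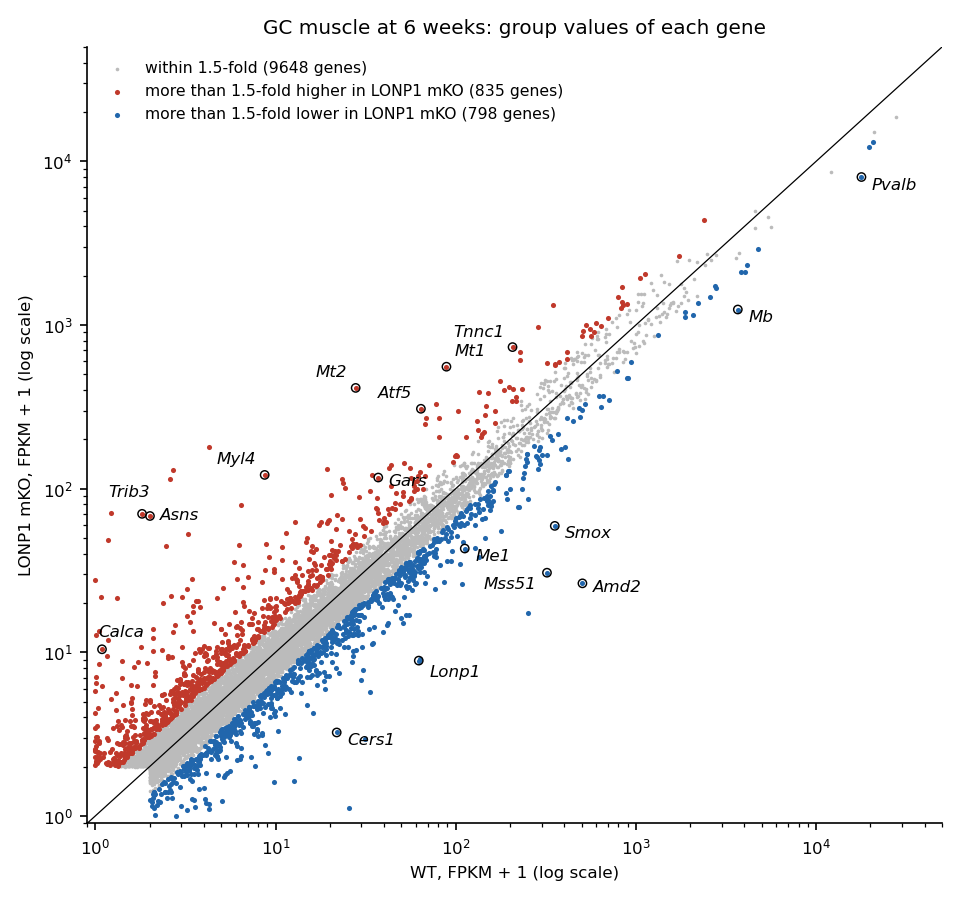
FPKM + 1 of each of 11281 genes in WT (horizontal, log scale) and LONP1 mKO GC muscle (vertical, log scale) at 6 weeks; each point is a gene, the line marks equal values, and 835 genes are more than 1.5-fold higher and 798 more than 1.5-fold lower. The genes furthest above the line had low WT levels, as Trib3 and Asns did, while Amd2, Smox, Mss51 and Lonp1 lie far below it and Pvalb and Mb stand for abundant fibre genes that were lower.

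The 15 genes furthest above WT were led by genes of the stress response, described below, but also held genes with other roles. Metallothionein 2 (Mt2), a zinc-binding protein, was at 26.8 against 412 FPKM, and its neighbour Mt1 at 87.8 against 555 FPKM. Both were also higher at 2 weeks, with changes of 1.13 and 1.23. Arhgap33, which encodes a GTPase activating protein, was at 0.318 against 20.5 FPKM. Soat2, a sterol O-acyltransferase that esterifies cholesterol, was at 0.0530 FPKM in WT against 12.4 FPKM in LONP1 mKO muscle, and Cdsn, which encodes corneodesmosin of the skin barrier, at 0.0719 against 20.9 FPKM. These 3 genes were near the lower limit of measurement in WT muscle and clearly present in LONP1 mKO muscle. The small nucleolar RNA host gene Snhg9 was listed at 0 in WT and at 26.7 FPKM in LONP1 mKO muscle. It lies against the ribosomal protein gene Rps2 on the opposite strand, and since the library kit named in the labels does not mark the strand, reads from the overlapping ends of both genes cannot be told apart. The calcium-binding alarmin S100a8 was at 1.70 against 129 FPKM, whereas its usual partner S100a9 was at 0.857 against 1.14 FPKM and the other 8 neutrophil markers of the table stayed below 1 FPKM in both groups.

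Among the 15 genes furthest below WT, several encode enzymes of lipid, ketone and protein modification. Ceramide synthase 1 (Cers1), the main ceramide synthase of muscle, was at 20.9 FPKM in WT against 2.24 FPKM in LONP1 mKO muscle. Its row overlaps the growth factor gene Gdf1 on the same strand, and Gdf1 was at 4.51 against 8.10 FPKM. Bdh1, the mitochondrial enzyme that interconverts ketone bodies, was at 28.8 against 5.74 FPKM, and the lysine methyltransferase gene Mettl21c at 108 against 25.3 FPKM. Kcng4, a modifier subunit of voltage-gated potassium channels, was at 32.3 FPKM in WT against 4.75 FPKM in LONP1 mKO muscle. All 4 were still detected in LONP1 mKO muscle, at 2.24 FPKM or more. At 2 weeks the changes of Cers1, Bdh1, Mettl21c and Kcng4 were -0.06, 0.39, -0.34 and -0.03. Bdh1 was below 1 FPKM in both groups at that age, with 0.426 against 0.871 FPKM. The row 1700001O22Rik, with 24.5 against 0.121 FPKM, had the most negative change of all, -4.51.

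**Figure D2:**
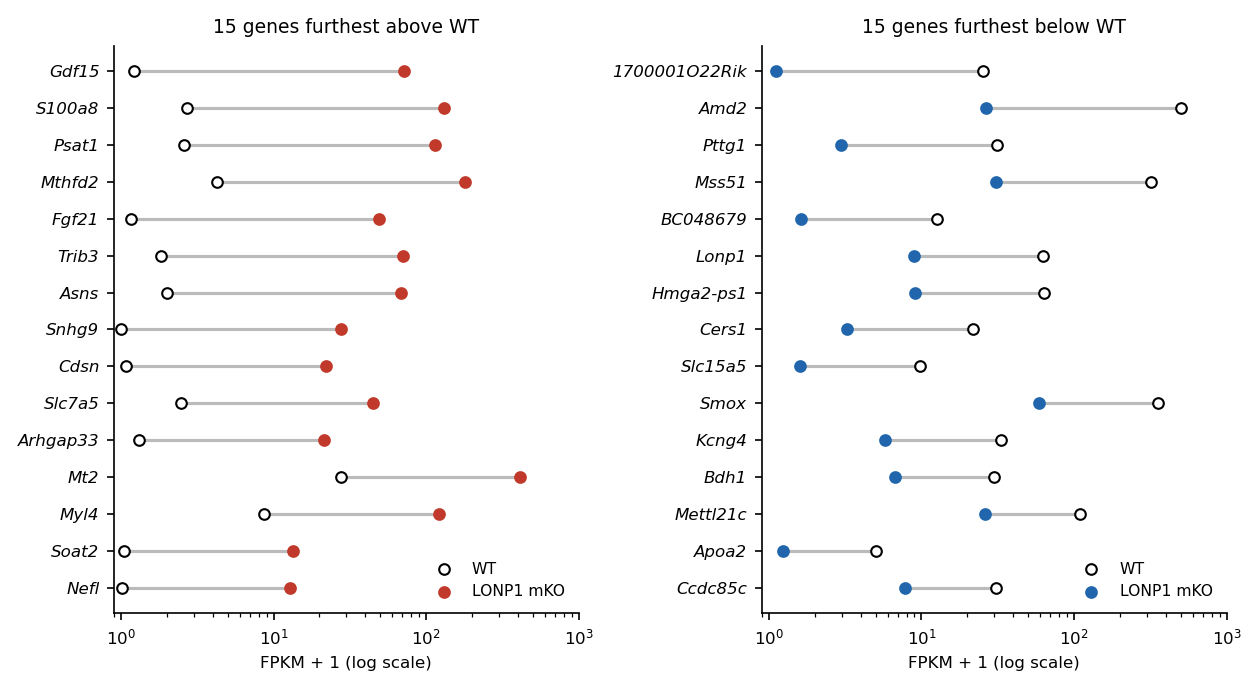
FPKM + 1 (log scale) in WT (open circles) and LONP1 mKO muscle (filled circles) at 6 weeks for the 15 genes with the largest and the 15 with the most negative change; the grey line joins the pooled value of each group. On the left, WT levels run from 0 FPKM for Snhg9 to 26.8 FPKM for Mt2, whereas Amd2, Mss51 and Smox on the right lie at 320 FPKM or more in WT.

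All 8 transcription factors of the ISR list were higher in LONP1 mKO muscle, with changes between 0.68 and 2.26 and a median of 1.45, against 7.40% of all members. Atf5, which is translated under stress and drives the mitochondrial unfolded protein response, was at 63.1 against 307 FPKM. Ddit3, encoding the stress factor CHOP, was at 19.4 against 90.3 FPKM, and Atf3, a stress-inducible repressor and activator, at 6.06 FPKM in WT against 27.9 FPKM in LONP1 mKO muscle. Atf4, the central factor of the response, was already abundant in WT and differed less, with 132 against 228 FPKM. The C/EBP partners Cebpg and Cebpb had changes of 1.21 and 0.99. At 2 weeks the change of Cebpb was 0.03, and those of Atf5, Ddit3 and Atf3 were 1.58, 0.94 and 1.07.

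Among 13 measured feedback and signalling genes of the ISR, 6 were higher, 5 of them above the minimum in both groups, and none was lower, against 7.40% and 7.07% of all members. The pseudokinase gene Trib3, which restrains ATF4, was at 0.817 against 69.1 FPKM, and the leucine sensor Sesn2, an inhibitor of mTORC1, at 1.38 against 18.97 FPKM. Eif4ebp1, the brake on cap-dependent translation, had 67.3 FPKM in WT against 267 FPKM in LONP1 mKO muscle. The 4 kinases that phosphorylate eIF2 are the entry to the response. Eif2ak1, the kinase that relays mitochondrial stress, was at 21.6 against 15.9 FPKM, and Eif2ak2, Eif2ak3 and Eif2ak4 had changes of 0.16, -0.05 and -0.13, all 4 within 1.5-fold and named after their values were seen. Of 7 secreted stress factors 3 were higher and 1 was lower, but 2 of the 3, Gdf15 and Fgf21, met the minimum in LONP1 mKO muscle only. Stanniocalcin 2 (Stc2), a glycoprotein hormone, was at 2.02 against 9.80 FPKM beside the larger differences of Gdf15 (0.219 against 70.1 FPKM) and Fgf21 (0.173 against 47.7 FPKM). Fndc5, the precursor of irisin, was lower, with 54.2 against 29.9 FPKM, and Vegfa, with 73.4 FPKM in WT against 93.5 FPKM in LONP1 mKO muscle, was within 1.5-fold.

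ATF4 and C/EBP proteins bind composite elements of the form TGATGNAAT as a pair (N is any base). In the RefSeq promoters of GRCm38.p6, from 250 bases before to 50 after the start of transcription, this motif was present on either strand for 1.08% of 27025 genes and for 0.534% of the 8618 members with a promoter in the table. It was present for 1.42% of the 632 higher and 0.876% of the 571 lower members with a promoter. Among the 69 genes of the 7 ISR, amino acid and cytosolic tRNA synthetase lists with a promoter, 6 held it (8.70%), namely Nupr1, Fgf21, Pycr1, Aars, Gars and Iars. It was present for 0 of 11 feedback and signalling genes, 0 of 10 one-carbon genes and 0 of 13 amino acid transporters. The cyclic AMP response element TGACGTCA, searched in the same way, was present for 2.03% of all genes, for 3.66% of the members and for 1 of the 69 genes, Ppp1r15a. Neither motif contains the other, and a match describes the letters of the window and not the binding of a factor. The stretches around the motif are shown for 5 of the 6 genes, since they span the secreted, transcription factor, proline and tRNA synthetase groups described here, with the motif in capitals, 5′ to 3′ on the strand of the gene.
Fgf21, chr7:45615592-45615665, minus strand: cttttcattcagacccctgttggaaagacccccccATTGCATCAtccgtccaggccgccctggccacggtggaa
Nupr1, chr7:126625543-126625616, minus strand: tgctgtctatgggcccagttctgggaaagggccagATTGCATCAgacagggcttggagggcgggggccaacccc
Pycr1, chr11:120643813-120643886, minus strand: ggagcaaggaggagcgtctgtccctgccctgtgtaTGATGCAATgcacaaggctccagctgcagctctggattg
Aars, chr8:111033694-111033767, plus strand: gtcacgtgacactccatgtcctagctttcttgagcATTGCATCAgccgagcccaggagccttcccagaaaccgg
Gars, chr6:55037935-55038000, plus strand: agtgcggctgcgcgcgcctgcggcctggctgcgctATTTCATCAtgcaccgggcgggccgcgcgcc
The motif began 140 bases before the start of Fgf21, 111 before that of Nupr1, 103 before that of Pycr1, 113 before that of Aars and 31 before that of Gars. In Pycr1 it read in the forward direction and in the other 4 genes as its reverse complement. The 5 genes shown, a chosen part of the 6, were all higher in LONP1 mKO muscle, Fgf21 with a change of 5.38, Pycr1 of 2.15, Nupr1 of 1.69, Gars of 1.65 and Aars of 0.67.

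Genes for the synthesis of serine, asparagine and proline were among those furthest above WT. Of 12 measured genes 6 were higher and none was lower, where 7.40% and 7.07% of all members were, with a median change of 1.36. Asparagine synthetase (Asns) was at 1.01 against 67.05 FPKM. Phosphoserine aminotransferase (Psat1), the second step from glycolysis to serine, had a change of 5.48, whereas Phgdh before it and Psph after it had changes of 2.48 and 0.58, so within 1 pathway the differences were unequal. On the proline branch, Aldh18a1, which makes pyrroline-5-carboxylate in mitochondria, was at 2.25 against 23.4 FPKM. In the folate cycle, 5 of 13 genes were higher, 4 of them above the minimum in both groups. The mitochondrial members Mthfd2 (5.39), Aldh1l2 (2.30), Mthfd1l (1.37) and Shmt2 (1.04) had larger changes than the cytosolic Shmt1 (0.75) and Mthfd1 (0.13). Mthfd1l was nearly undetected in WT, with 0.153 against 1.98 FPKM.

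Amino acid transporters showed a similar split. Of 18 genes, 9 were higher and 1 was lower, but 6 of the 18 met the minimum in LONP1 mKO muscle only. Of the 12 above the minimum in both groups, 5 were higher, against 7.40% of all members. Slc7a5, the light chain of the leucine exchanger LAT1, was at 1.48 FPKM in WT against 43.7 FPKM in LONP1 mKO muscle, and its heavy chain Slc3a2 had a change of 1.70. The cationic amino acid transporters Slc7a1 and Slc7a3 were at 1.10 against 11.3 FPKM and at 0.00864 against 5.45 FPKM, respectively. The exception was Slc38a4, a system A transporter, with 50.8 against 20.8 FPKM. Slc38a3, a system N transporter for glutamine, was near its WT level with a change of 0.05.

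Aminoacyl-tRNA synthetases, the enzymes that load tRNA with amino acids, differed by compartment. Of 20 cytosolic enzymes 11 were higher, against 7.40% of all members, and none was lower, with a median change of 0.67. With equal sums 14 were higher, against 1269 of all 11281 genes. None of 17 mitochondrial enzymes was past 1.5-fold in either direction, with changes between -0.37 and 0.41 and a median of 0.00. Glycyl-tRNA synthetase (Gars), which serves both compartments, was the furthest above WT, with 36.2 FPKM in WT against 116 FPKM in LONP1 mKO muscle. Leucyl-tRNA synthetase (Lars) was at 14.9 against 43.8 FPKM and seryl-tRNA synthetase (Sars) at 35.6 against 86.1 FPKM. Their mitochondrial counterparts Lars2 and Sars2 had changes of -0.08 and -0.13. At 2 weeks 5 of the 20 cytosolic and none of the 17 mitochondrial enzymes were higher, against 2.58% of the 11558 genes that met the same rule at that age.

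**Figure D3:**
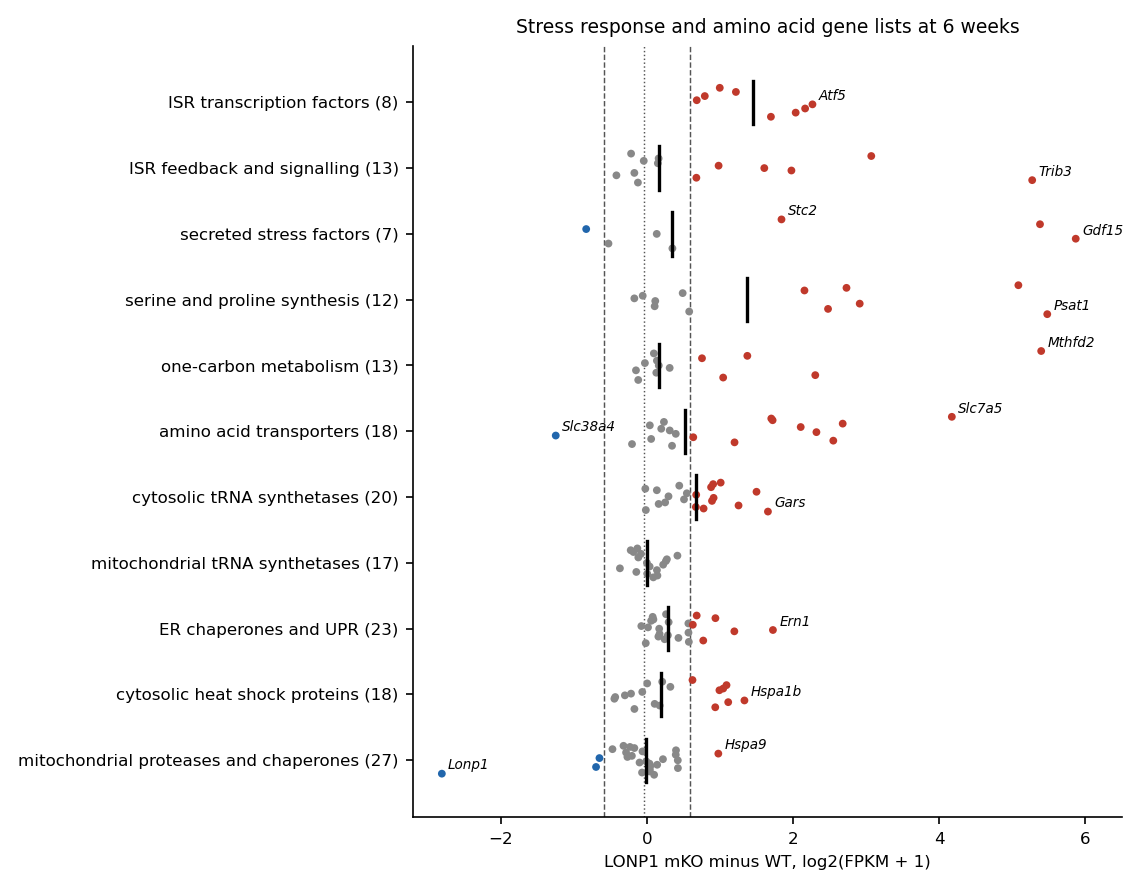
Change in log2(FPKM + 1), LONP1 mKO minus WT at 6 weeks (horizontal), for the members of 11 gene lists, with the number meeting the expression rule in brackets; each point is a gene, red and blue mark more than 1.5-fold higher and lower (dashed lines), black bars are list medians and the dotted line is the median of all members, -0.04. The ISR transcription factors and 11 of 20 cytosolic tRNA synthetases lie to the right of the dashed line, and no mitochondrial tRNA synthetase does.

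Chaperones and stress sensors of the endoplasmic reticulum (ER) were above WT to a lesser degree, with 6 of 23 genes higher and none lower, against 7.40% and 7.07% of all members, and a median of 0.28. With equal sums 9 were higher, against 1269 of all 11281 genes. The ER stress sensors Ern1 (IRE1) and Atf6 were at 3.56 against 14.04 FPKM and at 6.63 FPKM in WT against 16.4 FPKM in LONP1 mKO muscle, respectively. Hspa5, the main ER chaperone BiP, was within 1.5-fold, with a change of 0.56. Among cytosolic heat shock proteins 7 of 18 were higher and none was lower. The inducible HSP70 genes Hspa1a and Hspa1b, near-identical copies whose reads the counting could split, had changes of 1.09 and 1.33, and the small heat shock protein Hspb7 of muscle was at 185 against 401 FPKM. The genes that encode chaperones and proteases inside mitochondria stayed closer to WT. Of 27, only Hspa9, the matrix HSP70, was higher, with 206 against 405 FPKM. Hspd1 and Hspe1, the matrix chaperonins, had changes of 0.39 and 0.42, and Clpp, the other ATP-dependent protease of the matrix, had -0.06. Besides Lonp1, the inner membrane peptidase gene Immp1l (96.04 against 58.7 FPKM) and the AFG1 family ATPase gene Lace1 (8.82 against 5.25 FPKM) were lower, and both were within 1.5-fold when the groups were scaled to the same sum.

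Nuclear genes of the respiratory chain were below WT by small amounts. Of 82 subunit genes of complexes I to IV and ATP synthase, 72 had a change below 0, as did 6205 of all 11281 members. Of the 82, 2 were called higher and 4 lower, against 7.40% and 7.07% of all members. The median was -0.24 against -0.04 for all members. With equal sums the median was -0.07, 56 of the 82 were below 0, and 2 were higher and 1 lower. Of 36 complex I subunits 1 was lower and none was higher, against 7.07% and 7.40% of all members, and with equal sums none was past 1.5-fold. Complex IV subunits differed by isoform. Cox6a2, the muscle form of subunit 6a, was at 2372 against 4379 FPKM, whereas Cox7a1 and Cox8b, the muscle forms of subunits 7a and 8, were at 2768 FPKM in WT against 1682 FPKM in LONP1 mKO muscle and at 4764 against 2924 FPKM, respectively, both within 1.5-fold with equal sums. Cox4i2, the oxygen-regulated form of subunit 4, was lower at a low level, with 6.81 against 3.72 FPKM. Cox8a, the ubiquitous form of subunit 8, was at 137 against 207 FPKM, and Cox4i1 was within 1.5-fold with a change of -0.13. All 4 genes of complex II were below WT, from -0.27 for Sdha to -0.09 for Sdhb, and with equal sums Sdhb was above WT. No transcript of the mitochondrial genome was in the table.

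The machinery that builds mitochondria was near its WT level. None of 77 mitochondrial ribosomal protein genes and none of 17 genes of mitochondrial DNA maintenance and transcription was past 1.5-fold, against 14.5% of all members. Their medians were -0.06 and 0.01. With equal sums 1 of the 77 was higher. Of 34 assembly factors of the respiratory chain, 1 was lower, Ndufaf5 (15.9 against 9.60 FPKM), which was within 1.5-fold with equal sums, and of 28 import genes 1 was higher, Timm8a1 (12.8 against 22.6 FPKM). Tfam, which packages mitochondrial DNA, was at 14.8 FPKM in WT against 13.3 FPKM in LONP1 mKO muscle. Among 12 regulators of mitochondrial biogenesis, Ppargc1a, which encodes the coactivator PGC-1α, was at 7.67 against 10.1 FPKM, within 1.5-fold. Perm1, a muscle regulator downstream of PGC-1α, was lower, with 105 against 58.1 FPKM, and the orphan receptor Esrrg was higher, with 7.001 against 12.96 FPKM. Fusion and fission genes stayed within 1.5-fold, with changes of -0.35 for Mfn1, -0.36 for Mfn2, -0.28 for Opa1 and 0.49 for Dnm1l, apart from the fission gene Mtfp1, which was at 105 FPKM in WT against 66.6 FPKM in LONP1 mKO muscle. With equal sums Mtfp1 was within 1.5-fold and Dnm1l was past it.

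Genes of fuel use differed by pathway. None of 24 genes of fatty acid oxidation was past 1.5-fold, with changes between -0.32 and 0.32, whereas 9 of 24 genes of glycolysis and glycogen use were lower and 2 higher, against 7.07% and 7.40% of all members, with a median of -0.50. With equal sums 6 were lower, against 503 of all 11281 genes, and the median was -0.33. Phosphorylase kinase (Phkg1), which switches on glycogen breakdown, was at 293 against 140.3 FPKM. The lactate exporter Slc16a3 was at 290.1 against 149 FPKM and phosphoglucomutase Pgm2 at 899.5 against 474 FPKM. In contrast, the glycogen branching enzyme Gbe1 (26.6 against 51.7 FPKM) and the monocarboxylate importer Slc16a1 (13.2 against 22.8 FPKM) were higher. At 2 weeks none of 25 glycolysis genes was past 1.5-fold, where only 3.38% of all genes of that age were. In the citrate cycle list, 2 of 26 genes were lower, pyruvate carboxylase (Pcx; 38.7 against 21.98 FPKM) and the pyruvate carrier Mpc2 (523 against 329 FPKM), and with equal sums Mpc2 was within 1.5-fold. Cytosolic malic enzyme (Me1), which makes NADPH for lipid synthesis, was at 111 FPKM in WT against 42.05 FPKM in LONP1 mKO muscle, and the desaturase Scd1 at 19.7 against 12.4 FPKM, the 2 of 17 genes of fatty acid synthesis past 1.5-fold, although Scd1 was within it with equal sums. Of 21 genes of cholesterol synthesis, Mvd was the only 1 past it, with 5.02 against 9.75 FPKM.

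**Figure D4:**
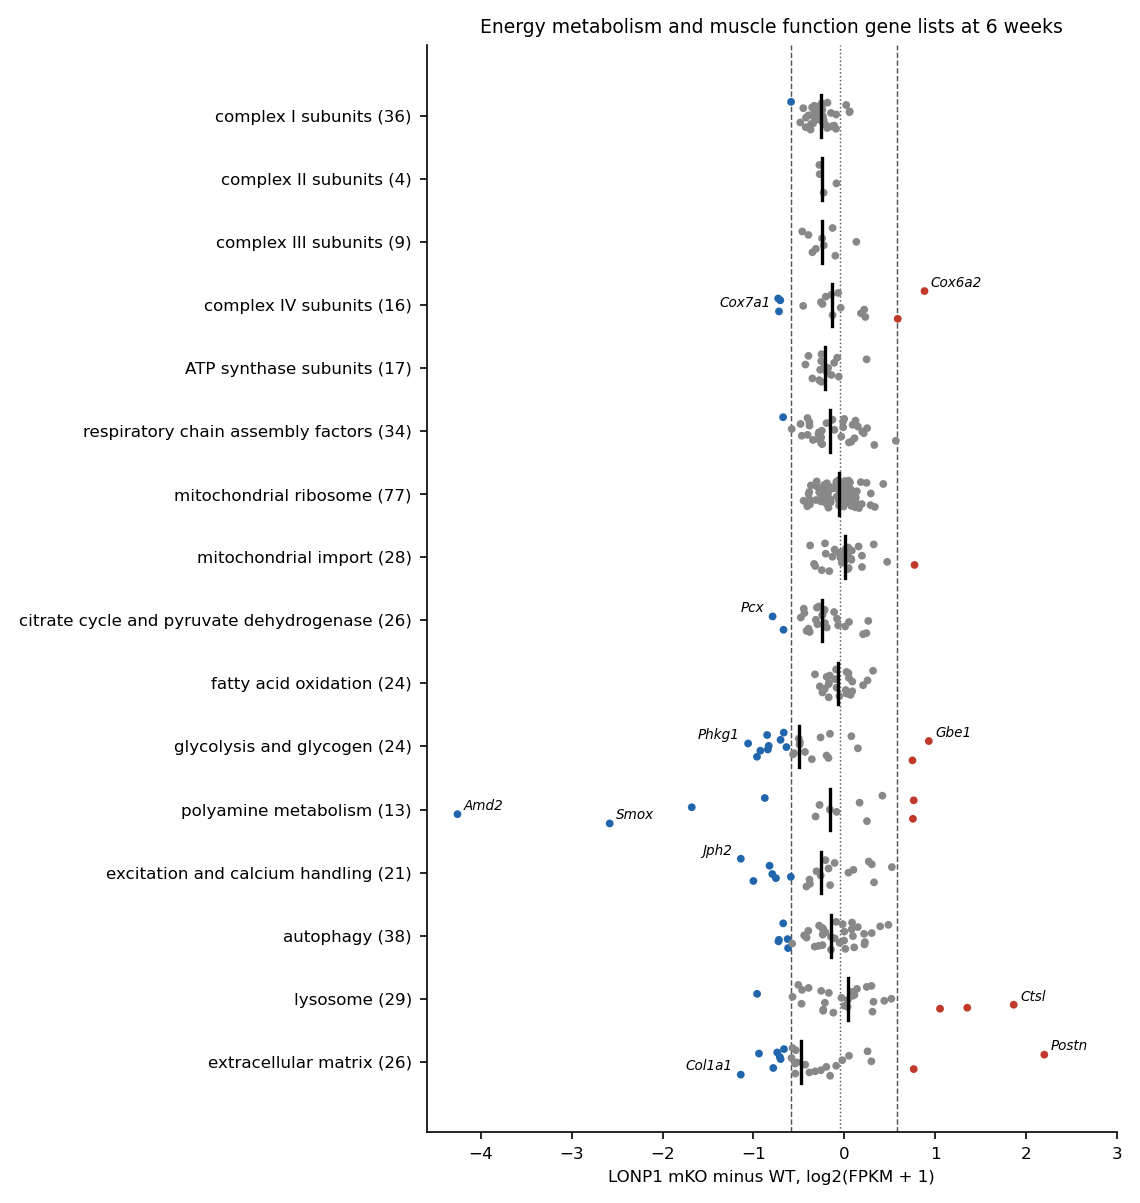
Change in log2(FPKM + 1), LONP1 mKO minus WT at 6 weeks (horizontal), for the members of 16 lists of energy metabolism and muscle function, with the number meeting the expression rule in brackets; points are genes, red and blue mark more than 1.5-fold higher and lower (dashed lines), black bars are list medians and the dotted line is the median of all members, -0.04. Respiratory chain genes cluster just left of the dotted line, 9 of 24 glycolysis genes lie left of the dashed line, and the polyamine genes Amd2 and Smox stand far from the rest.

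Polyamine metabolism held the most negative change among all listed genes. Of 13 genes 4 were lower and 2 higher, against 7.07% and 7.40% of all members, and the list median was -0.16, or 0.01 with equal sums. Polyamines are made from ornithine by ornithine decarboxylase and lengthened with groups that S-adenosylmethionine decarboxylase provides, and spermine oxidase turns spermine back into spermidine. S-adenosylmethionine decarboxylase was carried by 2 rows, both placed by the authors' table at chr10:40287458-40302188, where GENCODE places Amd1, a near-identical copy of Amd2. The row named Amd2 was at 504 against 25.4 FPKM, and the row with the joined names of Amd1 and Amd2 at 251 FPKM in WT against 16.5 FPKM in LONP1 mKO muscle. The counting could have split reads between these rows, which together held 755 FPKM in WT against 41.8 FPKM in LONP1 mKO muscle. Spermine oxidase (Smox; chr2:131491496-131525922) was at 354 against 58.2 FPKM, ornithine decarboxylase (Odc1) at 177 against 54.5 FPKM, and spermine synthase (Sms) had a change of -0.87. The authors' row for Smox spans the wider interval chr2:131127412-131604824, which holds other genes as well. Spermidine synthase (Srm) and the acetyltransferase Sat1, which acts in polyamine breakdown, were higher, with 11.2 against 19.5 FPKM and 17.98 FPKM in WT against 31.3 FPKM in LONP1 mKO muscle, respectively. At 2 weeks the changes of Smox, Odc1 and Amd2 were -0.05, 0.05 and -0.11, and in that separately made table WT muscle held 28.9, 40.7 and 28.7 FPKM of these transcripts. The joined row was then at 3.56 against 11.9 FPKM, a change of 1.50, and the sum of both rows at 32.3 against 38.5 FPKM.

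Contractile genes differed by fibre type. Of 13 measured fast fibre genes 8 were lower and 1 was higher, against 7.07% and 7.40% of all members, with a median of -0.68. With equal sums 5 were lower, against 503 of all 11281 genes, and the median was -0.51. Parvalbumin (Pvalb), the calcium buffer of fast fibres, was at 17858 against 8022 FPKM, and the myosin light chain kinase Mylk2 at 404 against 178 FPKM. Actn3, the fast Z-disc protein, was at 4023 against 2101 FPKM. Of the fast myosin heavy chains, Myh1 was higher, with 838 FPKM in WT against 1382 FPKM in LONP1 mKO muscle, and Myh2 was within 1.5-fold, with 447 against 577 FPKM, while Myh4 was among the failed rows. Slow fibre genes were higher for 14 of 16 (13 of the 15 above the minimum in both groups), with a median of 1.05, whereas at 2 weeks 11 of them were lower, against 0.805% of all genes of that age (3.38% were past 1.5-fold either way). Cardiac and slow troponin C (Tnnc1) was at 206 against 732 FPKM, the cardiac calsequestrin Casq2 at 16.8 against 61.4 FPKM, and slow troponin I (Tnni1) at 102 FPKM in WT against 297 FPKM in LONP1 mKO muscle.

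Genes that couple excitation to contraction were lower for 6 of 21, and none was higher, against 7.07% and 7.40% of all members. Junctophilin 2 (Jph2), which holds the T-tubule against the calcium store, was at 384 against 174 FPKM, and Stac3, a partner of the calcium channel of the T-tubule, at 199 against 99.00 FPKM. The potassium channel gene Kcna7 was at 106 against 59.6 FPKM. The calcium channel genes Cacna1s (-0.30) and Ryr1 (-0.38) were within 1.5-fold. With equal sums 5 of the 21 were lower and 1 higher, against 503 and 1269 of all 11281 genes.

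In the list of immature muscle, 10 of 11 genes were higher, with a median of 1.95, and 3 of them met the minimum in LONP1 mKO muscle only. Of the 8 above the minimum in both groups, 7 were higher, against 7.40% of all members. Embryonic light chain Myl4 was at 7.71 FPKM in WT against 120.3 FPKM in LONP1 mKO muscle, neonatal myosin Myh8 at 0.785 against 9.78 FPKM, embryonic myosin Myh3 at 0.630 against 7.13 FPKM and cardiac troponin T (Tnnt2) at 2.21 against 15.6 FPKM. The imprinted transcripts H19 and Igf2 were at 346 FPKM in WT against 1332 FPKM in LONP1 mKO muscle and at 7.45 against 25.8 FPKM, respectively. Of 19 genes of the neuromuscular junction and denervation 10 were higher, 8 of them above the minimum in both groups, and 1 was lower, the deacetylase Hdac4 (7.86 against 4.66 FPKM), which was within 1.5-fold with equal sums. The fetal acetylcholine receptor subunit Chrng was at 0.405 against 6.005 FPKM, and the stress genes Ankrd1 and Gadd45a at 5.41 against 78.2 FPKM and at 18.4 FPKM in WT against 132 FPKM in LONP1 mKO muscle. Myogenin (Myog), a late myogenic factor, was at 5.26 against 44.1 FPKM, and Tmem8c, which encodes the fusion protein myomaker, at 0.697 against 5.22 FPKM. The factors Myod1 and Myf6 had changes of -0.06 and 0.13, and Pax7 of satellite cells was below 1 FPKM in both groups.

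**Figure D5:**
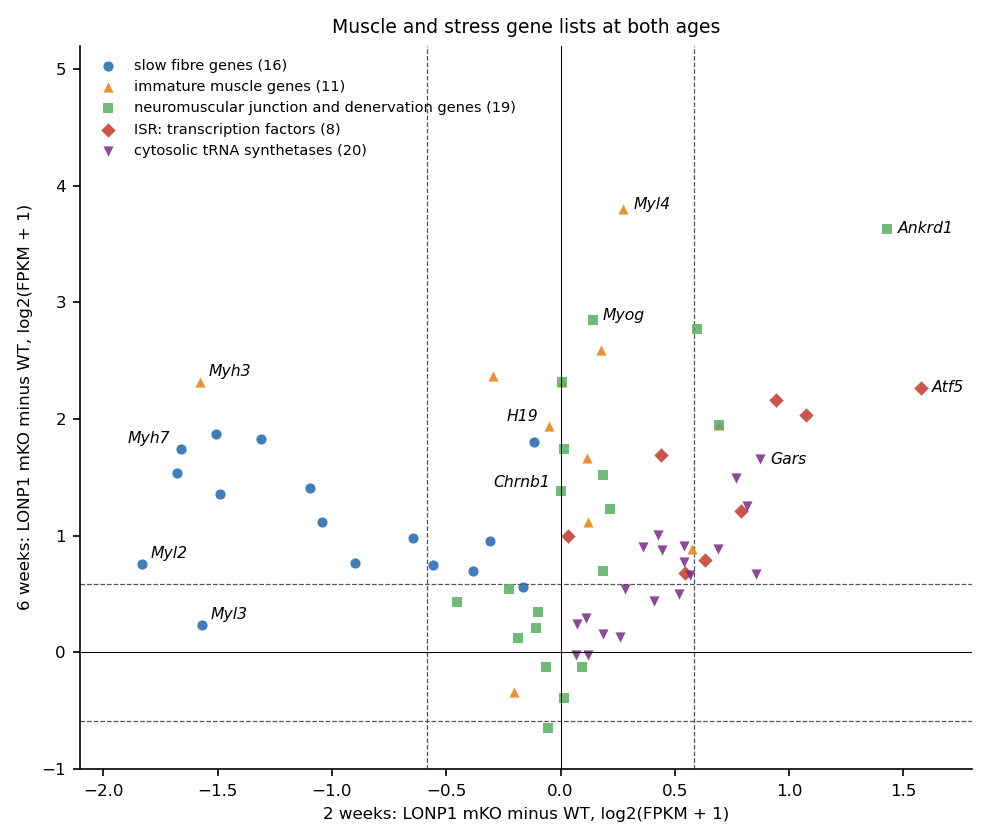
Change in log2(FPKM + 1), LONP1 mKO minus WT, at 2 weeks (horizontal) and 6 weeks (vertical) for the genes of 5 lists that met the 6-week rule, with the number plotted in brackets; each point is a gene, dashed lines mark 1.5-fold and the tables of the 2 ages were made separately. Slow fibre genes lie in the upper left, immature muscle and junction genes mostly above the middle, and ISR factors and cytosolic tRNA synthetases in the upper right.

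Over 4 lists of protein breakdown, 14 of 120 genes (11.7%) were past 1.5-fold, close to the 14.5% of all members, with 4 higher and 10 lower. With equal sums 8 were higher and 4 lower, against 1269 and 503 of all 11281 genes. Of 16 muscle ubiquitin ligases, Fbxo30 was higher (3.70 against 6.39 FPKM), and Asb2 (419 against 150.4 FPKM) and Fbxo40 (109.8 against 59.3 FPKM) were lower. The atrophy ligases Fbxo32 (atrogin-1) and Trim63 (MuRF1) were within 1.5-fold, with 56.2 against 43.99 FPKM and with 197 FPKM in WT against 150.4 FPKM in LONP1 mKO muscle. Of 37 proteasome subunits the immunoproteasome genes Psmb8 (8.09 against 4.62 FPKM) and Psmb9 (6.07 against 3.18 FPKM) were lower and no subunit was higher, and with equal sums 1 was lower and 1 higher. In the autophagy list 5 of 38 genes were lower and none was higher, among them the kinases Ulk1 (-0.72) and Ulk2 (-0.72), Foxo4 (-0.67) and Tfeb (-0.62), and with equal sums none of the 38 was lower and 1 was higher. The cargo receptor Sqstm1 was at 360.0 against 360.2 FPKM, and Map1lc3a and Map1lc3b had changes of 0.22 and -0.15. Pink1 and Park7 had changes of -0.44 and -0.51. In the lysosome list 3 of 29 genes were higher and 1 was lower. The protease cathepsin L (Ctsl) was at 66.7 against 246 FPKM, the proton pump subunit Atp6v1h at 9.92 against 26.9 FPKM, the membrane glycoprotein Gpnmb at 1.46 FPKM in WT against 4.12 FPKM in LONP1 mKO muscle and the cholesterol transporter Npc1 at 15.3 against 7.36 FPKM.

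Of 28 genes of growth control 7 were lower and 2 higher, or 5 and 3 with equal sums, against 7.07% and 7.40% of all members, or 503 and 1269 of the 11281 genes with equal sums. The growth differentiation factor Gdf11, which met the minimum in WT only, was at 4.22 against 0.780 FPKM and the TGF-β mediator Smad3 at 34.2 against 13.3 FPKM. Mss51, a mitochondrial protein of skeletal muscle that has been linked to TGF-β family signalling, was at 320.0 FPKM in WT against 29.6 FPKM in LONP1 mKO muscle. Igf1r was higher, with 1.87 against 4.28 FPKM. Myostatin (Mstn) had a change of -0.57. Among 18 targets of p53 and genes of senescence 6 were higher and 2 lower, against the same shares of all members, including the cell cycle inhibitor Cdkn1a at 22.7 against 107 FPKM, the receptor Eda2r at 5.62 against 19.3 FPKM and, in the other direction, Cdkn2b at 2.23 FPKM in WT against 0.784 FPKM in LONP1 mKO muscle, above the minimum in WT only. The mitotic genes Pttg1 (securin) and Aurka were at 30.3 against 1.97 FPKM and at 7.04 against 2.73 FPKM, whereas Mki67 and Top2a stayed below 1 FPKM in both groups. Of 18 clock genes 5 were higher and 4 lower, where 7.40% and 7.07% of all members were. Arntl, which encodes BMAL1, was at 6.94 against 2.30 FPKM and Nr1d1, its repressor, at 127 FPKM in WT against 58.6 FPKM in LONP1 mKO muscle, whereas Per2 and Per3 were at 1.39 against 4.53 FPKM and at 3.07 against 8.93 FPKM. The hour at which the muscles were taken is not given in the sources used here.

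Extracellular matrix genes were lower for 7 of 26 and higher for 2, against 7.07% and 7.40% of all members, with a median of -0.48. With equal sums 4 were lower, against 503 of all 11281 genes, and the median was -0.32. The collagen I chains Col1a1 and Col1a2 were at 145 against 65.2 FPKM and at 155 FPKM in WT against 80.5 FPKM in LONP1 mKO muscle, and the matricellular protein Sparc at 341 against 198 FPKM. Periostin (Postn), a matrix protein of repair, went the other way, with 5.10 against 27.1 FPKM, as did the protease inhibitor Timp1, with 2.73 against 5.34 FPKM. Of 8 fibroblast markers 3 were lower (1 with equal sums) and none was higher, and 3 of the 8 were above WT without passing 1.5-fold. The summed level of that list was 1124 FPKM in WT against 685 FPKM in LONP1 mKO muscle, of which the actin-severing protein gelsolin (Gsn) made up 637 against 316 FPKM and so most of the difference. Their part in the matrix values was not tested. Among 13 genes of interferon response and inflammation, Cxcl10 (0.309 against 3.43 FPKM), Tnfrsf12a (55.4 against 115 FPKM) and Tlr4 (0.887 against 2.15 FPKM) were higher and none was lower, although Cxcl10 and Tlr4 met the minimum in LONP1 mKO muscle only.

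Markers of the other cells in muscle were mostly at or below their WT level. Over the 11 lists of such markers 68 genes met the rule, of which 3 were higher and 13 lower, together 23.5% against 14.5% of all members. With equal sums 4 were higher and 8 lower, against 1269 and 503 of all 11281 genes. Endothelial markers summed to 206 FPKM in WT against 150.4 FPKM in LONP1 mKO muscle, and Emcn and Kdr were the 2 of 10 past 1.5-fold, with changes of -0.86 and -0.79. Macrophage markers summed to 158 FPKM in WT against 138 FPKM in LONP1 mKO muscle. Within that list the lysosomal marker Cd68 was higher (4.22 against 12.02 FPKM), whereas Csf1r (6.53 against 3.97 FPKM) was lower, though within 1.5-fold with equal sums, and Adgre1 had a change of -0.37. Lymphocyte markers were below 1 FPKM in both groups for all 8 genes. Adiponectin (Adipoq) was at 12.7 FPKM in WT against 6.11 FPKM in LONP1 mKO muscle. In the Schwann cell list 1 of 8 genes was higher and 1 lower (2 higher and none lower with equal sums). At 2 weeks all 9 genes of that list had been higher, against 2.58% of all genes of that age. Their sums were then 420 FPKM in WT against 1219 FPKM in LONP1 mKO muscle.

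Genes of neurons stood out in a survey of the 23 genes that were below 1 FPKM in WT and at 5 FPKM or more in LONP1 mKO muscle. The lists in the next sentences were written after these values were seen and are given as description. Neurofilament light chain (Nefl), an axonal protein, was at 0.00943 against 11.8 FPKM, the neuronal tubulin Tubb3 at 0.0540 against 7.43 FPKM, and the synaptic protein Snap25 was listed at 0 in WT and at 3.25 FPKM in LONP1 mKO muscle. All 12 neuron genes were above WT, and together they summed to 20.8 FPKM in WT against 109 FPKM in LONP1 mKO muscle. Of the 12, 9 met the rule, 6 of them in LONP1 mKO muscle only, and 5076 of all 11281 members were above WT. Uchl1 (4.86 against 34.5 FPKM) and Sncg (11.8 against 34.4 FPKM) made up most of both sums. The purinergic receptor P2rx3 and the neuropeptide gene Calca, both known from sensory neurons, were at 0.172 against 10.9 FPKM and at 0.0887 FPKM in WT against 9.43 FPKM in LONP1 mKO muscle. All 14 genes of the sensory neuron list were above WT, with sums of 2.88 FPKM in WT against 31.4 FPKM in LONP1 mKO muscle. Only 5 of the 14 met the rule, 4 of them in LONP1 mKO muscle only. Avil (2.28 against 5.61 FPKM) made up most of the WT sum, and P2rx3, Calca and Avil most of the LONP1 mKO sum. The defining genes of motor neurons, Chat, Slc18a3 and Mnx1, were listed at 0 in both groups. Sums of the neuron and sensory neuron lists at 2 weeks were 24.1 and 2.21 FPKM in WT against 33.4 and 3.42 FPKM in LONP1 mKO muscle. Uchl1 (9.30 against 14.5 FPKM) and Sncg (9.57 against 14.6 FPKM) made up most of the neuron sums at that age too. The junction genes named above, among them Chrng and Myog, are genes of the muscle fibre and are not in these lists, and the part of neuron RNA in their values was not tested.

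Genes of other tissues were also seen in WT muscle. All 18 liver genes of a list written in the same way were below WT in LONP1 mKO muscle, with sums of 43.8 FPKM in WT against 12.6 FPKM in LONP1 mKO muscle. Of the 18, 8 met the rule, only 2 of them above the minimum in both groups, and 6205 of all 11281 members were below WT. Hp (10.9 against 4.96 FPKM) and Cyp2e1 (12.3 against 5.80 FPKM) made up most of both sums. Albumin (Alb) was at 3.25 against 0.0960 FPKM, and the apolipoprotein gene Apoa2, one of the 15 genes furthest below WT, at 4.06 against 0.229 FPKM. The transcript Xist, which is made from the inactive X chromosome of females, was at 0.00311 against 6.11 FPKM, although 4 genes of the Y chromosome summed to 35.3 FPKM in WT against 35.4 FPKM in LONP1 mKO muscle and the methods name male mice. At 2 weeks Xist was below 0.01 FPKM in both groups. Of the skin genes, Krt1, Krt5, Krt14 and Krt15 were listed at 0 in both groups, and Krtdap (2.41 against 0.799 FPKM) and Dmkn (1.58 against 0.447 FPKM) were lower, opposite to Cdsn, while Krt10 was within 1.5-fold (1.64 against 1.15 FPKM). Whether RNA of another tissue or animal bears on the neuron, liver, Cdsn and Xist values was not tested.

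Against the 2-week table, the largest upward differences had mostly been present earlier. Of 66 genes more than 4-fold higher at 6 weeks that had a successful estimate at 2 weeks, 44 (66.7%) were already more than 1.5-fold higher, against 258 (2.30%) of all 11221 members compared. Of the 835 genes higher at 6 weeks 798 had a successful estimate at 2 weeks, of which 114 (14.3%) were higher at 2 weeks and 19 were lower. Of the 782 such genes among those lower at 6 weeks, 27 (3.45%) were lower and 25 (3.20%) were higher at 2 weeks, against 0.766% and 2.30% of all members, and of the 15 more than 4-fold lower 4 were lower and 1 was higher at 2 weeks. Among single gene symbols other than small RNA genes, 42 were past 1.5-fold in opposite directions at the 2 ages, 19 of them higher and 23 lower at 6 weeks. The tables were made separately and hold 1 value per group, so no test of an age effect was possible.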

How the data were processed

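GC muscles of WT and LONP1 mKO mice were sequenced as paired reads, 2 libraries a group at each age. The authors aligned the reads to mm10 with TopHat2 (2.0.14) and made FPKM values with Cufflinks (2.2.1), and the deposited tables hold 1 FPKM value per group pooled over its libraries. Their columns of log2 fold changes, test statistics, p-values and q-values hold the authors' own comparison and were not used. Gene models, library scaling and counting settings are not given in the sources used here. The study gives an average depth over its libraries, but the depth of each library is not in the deposited tables, and whole reads could not be recovered, since low values lay within 0.1 of whole multiples of a step in 12.2% to 29.1% of cases.

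Rows with status OK and at least 1 FPKM in either group were kept, and changes were taken as log2 ratios after addition of 1 FPKM. Genes past 1.5-fold were counted for 58 lists, and 6 further lists (neurons of 3 kinds, liver, keratinocytes, sex-linked genes) were described after their values were seen. Members and lists were chosen with earlier results of these data known. Genes named were the 15 largest and 15 most negative changes among single symbols other than small RNA genes, up to 3 in each direction per list, every gene of lists with 12 or fewer, genes of interest to the study and the 5 furthest past 1.5-fold in opposite directions at both ages on each side. The other genes named (Aars, Alb, Amd1, Avil, Calca, Cyp2e1, the eIF2 kinases, Gdf1, Hp, Hspa5, Hspd1, Hspe1, keratins, Dmkn, Lars2, motor neuron genes, Mstn, Mthfd1, P2rx3, Phgdh, Psph, Pycr1, Rps2, Sars2, Shmt1, Shmt2, Slc38a3, Slc3a2, Sms, Snap25, Sncg, Tubb3, Uchl1 and Xist) were chosen after their values were seen. A few genes are not reported here.

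Positions came from GENCODE M21 and promoters from RefSeq (GRCm38.p6), in which 8618 members had an entry. Python 3.11.15, pandas 2.3.3, numpy 2.4.6 and matplotlib 3.10.9 were used, and the counting was tested on simulated data. Alternatives covered the pseudocount, the fold, the FPKM minimum, the scale and the rows counted.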

Additional observations from a re-analysis of the deposited data

Results flagged for a closer look

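The 5 genes furthest past 1.5-fold in opposite directions at the 2 ages were taken on each side. The 6-week change minus the 2-week change is given for each, and since the tables were made separately and hold pooled values, this difference between ages was not tested. On the side higher at 6 weeks and lower at 2 weeks, 4 genes encode slow fibre proteins and 1 the embryonic myosin.

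Slow myosin heavy chain (Myh7) differed by 3.41, with 79.5 FPKM in WT against 269 FPKM in LONP1 mKO muscle at the older age and 285 against 89.3 FPKM at the younger. Myh3 differed by 3.90, slow troponin I (Tnni1) by 3.21, the light chain Myl6b by 3.38 and slow troponin T (Tnnt1) by 2.85.

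On the opposite side, the interferon-induced GTPase gene Gbp6 differed by -2.86, with 4.41 against 0.836 FPKM at the older age and 0.944 against 3.79 FPKM at the younger. The p53 target Phlda3 differed by -2.19, with 238 against 124 FPKM at the older and 10.8 against 27.2 FPKM at the younger age. The Rac activator Tiam1 differed by -2.41, the imprinted gene Snrpn by -1.86 and the skin gene Krtdap by -2.07. Krtdap was among the keratinocyte genes, whose summed FPKM at 2 weeks was 19.2 in WT against 41.6 in LONP1 mKO muscle, and the part of skin RNA in this value was not tested.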

How the results depend on the processing

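A fold above 2 gave 312 higher and 180 lower genes in place of 835 and 798, a minimum of 5 FPKM in either group gave 550 higher and 628 lower genes, and scaling both groups to the same sum gave 1269 higher and 503 lower genes. At least 1 FPKM in both groups gave 652 higher and 720 lower genes, so under both stricter minimums lower genes outnumbered higher ones. Under the remaining alternatives (a pseudocount of 0.1, no minimum, a median change of 0, single gene symbols) the counts lay between 832 and 1170 higher and between 691 and 1066 lower genes. Of 172 named genes past 1.5-fold, none turned its direction. Equal sums brought 22 of them within 1.5-fold, among them Cox7a1, Cox8b, Tnni2, Ndufaf5, Mpc2, Psmb8, Scd1, Hdac4 and Csf1r, a median of 0 brought 4 within it (Csf1r, Dcn and Tfeb among them), and a pseudocount of 0.1 none. Of the 9 lists whose median was past 1.5-fold, none turned its direction, equal sums brought the fast fibre and erythroid medians within it, and at least 1 FPKM in both groups brought the neuromuscular junction median within it. Equal sums turned the sign of 14 other list medians. No paired analysis was possible because each group has 1 pooled value, and for the same reason leaving out each replicate was not possible. Without read counts per gene or values per mouse, no error was given for genes near 1 FPKM.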

Other observations

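Of 25 genes of redox defence 3 were higher and 2 lower, near the 7.40% and 7.07% of all members, and the median of -0.04 was that of all members. Beside the metallothioneins, sulfiredoxin (Srxn1), which repairs oxidised peroxiredoxins, was at 17.2 FPKM in WT against 26.5 FPKM in LONP1 mKO muscle. Txnip, the inhibitor of thioredoxin, and the glutathione transferase gene Mgst1 were lower, with 367 against 215 FPKM and 40.4 against 13.7 FPKM, respectively. At 2 weeks 4 genes of this list were higher and none was lower, against 2.58% and 0.805% of all genes of that age.

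None of 6 satellite cell markers and none of 8 markers of smooth muscle and pericytes was past it, whereas 2 of 5 tendon markers, 2 of 7 adipocyte markers (1 with equal sums) and 2 of 4 erythroid markers were lower, against 7.07% of all members. Of the 4 erythroid markers 2 met the minimum in WT only, among them Hba-a2 (2.24 against 0.0790 FPKM), 1 of the 2 that were lower. Of 11 myogenic regulators 2 were higher and 1 was lower (none was lower with equal sums), and of the 9 above the minimum in both groups 1 was higher, against 7.40% of all members. The other higher gene, Tmem8c, met the minimum in LONP1 mKO muscle only. Of 11 cell cycle genes 2 were lower and none was higher, or 2 lower and 2 higher with equal sums. The 6 genes of motor and sympathetic neurons summed to 0.0491 FPKM in WT against 0.836 FPKM in LONP1 mKO muscle, nearly all of it Th (0.0421 against 0.833 FPKM), an enzyme of catecholamine synthesis that was named after its values were seen, while 4 of the 6 were listed at 0 in each group. The 11 keratinocyte genes summed to 5.74 FPKM in WT against 23.7 FPKM in LONP1 mKO muscle, of which Cdsn made up all but a small part in LONP1 mKO muscle.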
